A study of Mus musculus with 11 samples.

Results

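The T cell receptor constant region and CD3 genes were followed, together with *Cd4* and *Cd2*, through 11 RNA-seq libraries of renal CD4+ T cells. The 9 genes *Trac*, *Trbc1*, *Trbc2*, *Cd3e*, *Cd3d*, *Cd3g*, *Cd247*, *Cd4* and *Cd2* were chosen by name, as parts of the receptor complex and its accessory molecules, out of the 35814 gene symbols measured, and all 9 passed the filter on low counts in each comparison. The study asked how NFκB signalling in CD4+ T cells shapes kidney ischemia-reperfusion injury (IRI), in which blood flow to the kidney is stopped and then restored. Cells were taken on day 2 after 45 min of ischemia from male C57BL/6 mice aged 8 to 12 weeks, by magnetic enrichment and fluorescence sorting.

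All 3 groups carried Cre recombinase driven by the CD4 promoter, which is already active in thymocytes that go on to become CD8+ cells. CD4cre animals (3 libraries, genotype given as WT) served as controls. CD4IKK1Δ animals (5 libraries) had floxed alleles of IKK1, the kinase encoded by *Chuk*. CD4NIKΔ animals (3 libraries) had floxed alleles of NIK, the kinase encoded by *Map3k14*, which acts upstream of IKK1 in the non-canonical NFκB pathway. Every group had undergone IRI, so no uninjured kidney was among the libraries. The labels call the libraries of a group biological replicates and do not say how many mice went into each.

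An αβ T cell recognizes antigen with a receptor made of an α and a β chain, whose constant regions are encoded by *Trac* and by either *Trbc1* or *Trbc2*. The receptor chains have almost no cytoplasmic part, and signalling is carried by the CD3γ, CD3δ, CD3ε and ζ chains, encoded by *Cd3g*, *Cd3d*, *Cd3e* and *Cd247*, which bear the tyrosine motifs that Lck phosphorylates. CD4 brings Lck to the complex when it binds MHC class II, and CD2 is an adhesion and costimulatory molecule that binds CD48 in the mouse.

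The 2 β constant genes are near copies, and their sequences are shown because they set how far the 2 values can be told apart. *Trbc1* (chromosome 6, 41515152 to 41516815, plus strand, GRCm39) and *Trbc2* (chromosome 6, 41523664 to 41525286, plus strand) gave transcripts in the GENCODE annotation that aligned over 521 bases from the first base on, of which 518 are coding, with 498 bases (95.6%) identical and the first 259 bases without any difference. Bases 361 to 500 of the alignment, counted from the first base of either transcript and all coding, are printed 5′ to 3′, with the substitutions in capitals.
Trbc1: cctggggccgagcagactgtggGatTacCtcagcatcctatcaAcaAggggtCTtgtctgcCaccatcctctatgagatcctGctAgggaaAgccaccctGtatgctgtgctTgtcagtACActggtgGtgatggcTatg
Trbc2: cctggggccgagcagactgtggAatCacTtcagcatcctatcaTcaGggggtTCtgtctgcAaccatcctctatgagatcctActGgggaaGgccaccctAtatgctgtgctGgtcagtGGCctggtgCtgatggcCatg
Of the 23 substitutions, 18 lie in this stretch. In words of 31 bases, 45.4% of the words of *Trbc1* also occurred in *Trbc2* and 48.5% of those of *Trbc2* also occurred in *Trbc1*. The deposited estimates bore the mark of this sharing. The sum of *Trbc1* and *Trbc2* was a whole number to within 0.05 in 11 of 11 libraries, whereas each gene alone was whole in 3 of 11. Reads shared by the pair had thus been divided by the estimator, so the sum is firmer than either value.

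The remaining genes lie apart from one another, except for a CD3 cluster on chromosome 9. *Cd3g* (44880870 to 44891735, minus strand), *Cd3d* (44893083 to 44899173, plus strand) and *Cd3e* (44910037 to 44920925, minus strand) are neighbours there in GRCm39. *Trac* lies on chromosome 14 (54457978 to 54461663, plus strand), *Cd247* on chromosome 1 (165616250 to 165704846, plus strand), *Cd4* on chromosome 6 (124841655 to 124874758, minus strand) and *Cd2* on chromosome 3 (101183215 to 101195458, minus strand). *Trac* and *Cd2* shared no 31-base word with another gene. *Cd247* shared 54.3% of its words with other genes, most of them with *Pou2f1* on the opposite strand, and its values in these files are read with that in mind.

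The upstream sequences of the chromosome 9 cluster are printed because its 3 genes lie side by side and were measured together. The 250 bases before each start site are given 5′ to 3′ on the gene's own strand, from the RefSeq promoter table in build GRCm38.p6, which held 4 of the 9 genes. Capitals mark CAGGTG, an E-box of the kind bound by E proteins, and CAGGAA, an ETS-type core, on either strand. The *Cd3g* window is chr9:44980432-44980681, the *Cd3d* window chr9:44981536-44981785 and the *Cd3e* window chr9:45009612-45009861.
Cd3g: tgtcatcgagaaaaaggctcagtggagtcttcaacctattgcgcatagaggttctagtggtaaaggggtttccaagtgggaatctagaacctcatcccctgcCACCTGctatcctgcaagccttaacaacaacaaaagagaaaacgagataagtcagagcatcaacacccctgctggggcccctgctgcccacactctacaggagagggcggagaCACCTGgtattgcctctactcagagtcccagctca
Cd3d: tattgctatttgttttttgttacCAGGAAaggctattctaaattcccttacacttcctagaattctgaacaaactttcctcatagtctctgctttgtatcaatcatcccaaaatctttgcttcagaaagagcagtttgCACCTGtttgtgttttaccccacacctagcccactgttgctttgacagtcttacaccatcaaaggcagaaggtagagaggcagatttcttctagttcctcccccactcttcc
Cd3e: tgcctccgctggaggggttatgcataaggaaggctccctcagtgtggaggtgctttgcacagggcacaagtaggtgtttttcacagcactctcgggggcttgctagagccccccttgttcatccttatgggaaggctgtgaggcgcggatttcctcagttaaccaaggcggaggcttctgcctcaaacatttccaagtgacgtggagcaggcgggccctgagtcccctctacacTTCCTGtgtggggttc
The divergent starts of *Cd3d* and *Cd3g* were 1355 bases apart. The starts of *Cd3d* and *Cd3e*, which are transcribed toward each other, were 27825 bases apart. CAGGTG was present in 17.1% of all 27025 promoters of this length. It occurred 2 times in *Cd3g*, 1 time each in *Cd3d* and *Cd247*, and 0 times in *Cd3e*. CAGGAA was present in 25.4% of promoters and occurred 1 time each in *Cd3d*, *Cd3e* and *Cd247*. Among the other motifs searched on both strands, CANNTG, which contains CAGGTG, was held by 66.0% of promoters and by each of the 4 genes, CTTTGA (14.05% of promoters) occurred 2 times in *Cd3d* alone, and AGATAA (10.3%) 1 time in *Cd3g* alone. TGATAA (8.16%), TGTGGT (14.2%) and CCGGAA (12.2%) were found in none of the 4. These matches are letters in a window, and binding was not measured.

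The libraries held 15751632 to 25737046 estimated counts, so 3 counts amounted to 0.115 to 0.212 CPM (counts scaled to a common library total), and mitochondrial genes took 1.65% to 2.76%. Levels are given as CPM, scaled with TMM factors, throughout. The 9 genes together took 0.110% to 0.221% of the counts in CD4cre libraries, 0.498% to 0.831% in libraries labelled CD4NIKΔ, and 0.000765% to 0.0968% in libraries labelled CD4IKK1Δ. Replicate 1 of CD4IKK1Δ held 123 counts over the 9 genes and replicate 2 held 1460, against 8593 to 16901 in the other 3 libraries of that group, and both are named where a result turns on them. In replicate 1 the 9 genes ran from 0 counts of *Cd247*, 1 count of *Trac* and 4 counts of *Cd3e* to 32 counts of *Cd4* and 38 counts of *Trbc2*, the last at 2.46 CPM. Neuronal marker genes, 8 in number, summed to 1620 to 2083 CPM in CD4cre libraries, 2140 to 2522 CPM in CD4IKK1Δ and 547 to 1190 CPM in CD4NIKΔ, above the summed 9 receptor genes in 2 of 3, 5 of 5 and 0 of 3 libraries. The targeted genes did not check the labels, because the counts were summed over each symbol and do not resolve the floxed exons. *Chuk* was at 16.3 to 33.2 CPM in CD4cre libraries and 15.3 to 26.5 CPM in CD4IKK1Δ libraries (log2 fold change −0.11 ± 0.31 SE, adjusted p = 0.921), and *Map3k14* at 14.7 to 19.6 CPM in CD4cre and 12.8 to 30.8 CPM in CD4NIKΔ libraries (0.30 ± 0.36 SE, adjusted p = 0.575), both in edgeR's quasi-likelihood test. *Map3k14*, the gene targeted in CD4NIKΔ, was lowest in the libraries labelled CD4IKK1Δ, at 1.87 to 9.24 CPM, below every library of the other groups. In CD4IKK1Δ, 8.38% of all genes were lower without overlap against CD4cre and 24.4% against CD4NIKΔ. Of the 26 genes of proximal receptor signalling described below, 15 and 22 were. *Map3k14* stood at −1.58 ± 0.46 SE against CD4cre (edgeR adjusted p = 0.148, DESeq2 adjusted p = 0.0166) and was lower than in CD4NIKΔ libraries (−1.91 ± 0.44 SE, edgeR adjusted p = 0.00418). What its low values reflect was not tested. CD4IKK1Δ and CD4NIKΔ name libraries by their labels throughout.

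**Figure D1:**
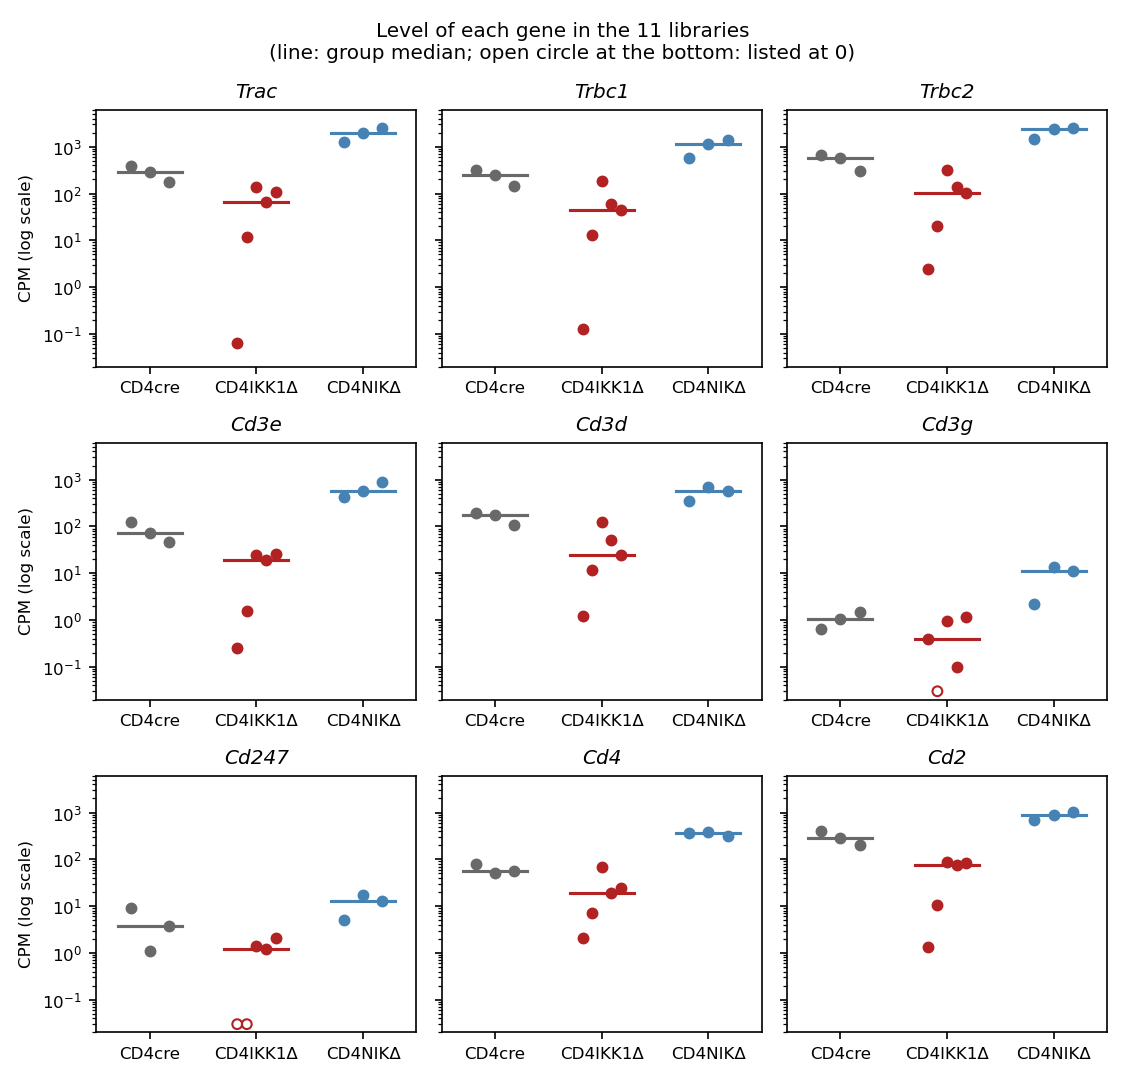
Level of each of the 9 genes (CPM, log axis) in 3 CD4cre, 5 CD4IKK1Δ and 3 CD4NIKΔ libraries, 1 point per library, with the group median as a line and open circles at the bottom for libraries listed at 0. For *Trac* the CD4NIKΔ libraries sit between 1282 and 2471 CPM, the CD4cre libraries between 176 and 392, and the CD4IKK1Δ libraries between 0.0646 and 136.

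Within a group the genes kept a broad order once levels were divided by transcript length. In CD4cre libraries the mean level per kilobase of transcript was 750 ± 270 CPM for *Trbc2*, 319 ± 118 for *Trbc1*, 303 ± 115 for *Trac*, 222 ± 74.2 for *Cd2*, 73.6 ± 21.3 for *Cd3d*, 55.1 ± 26.6 for *Cd3e*, 20.05 ± 4.597 for *Cd4*, 4.13 ± 3.62 for *Cd247* and 1.03 ± 0.389 for *Cd3g* (SD, n = 3). *Trbc2* lay above *Trbc1* without overlap, the ranges of *Trbc1*, *Trac* and *Cd2* overlapped in turn, and those of *Cd3d* and *Cd3e* overlapped. *Cd4* stood below both and above *Cd247*, and the ranges of *Cd247* and *Cd3g* overlapped. By median, *Trbc2* held rank 1, *Cd2* rank 4, *Cd4* rank 7, *Cd247* rank 8 and *Cd3g* rank 9 in all 3 groups.

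The low place of *Cd3g* and *Cd247* was thus common to the 3 groups. *Cd3g* counts came to 0.350% to 1.39% of those of *Cd3d* in CD4cre libraries and 0.603% to 1.92% in CD4NIKΔ libraries. In CD4IKK1Δ libraries the spread was wider, at 33.2%, 0%, 0.759%, 0.218% and 4.76% in replicates 1 to 5, where replicate 1 held 6 counts of *Cd3g* and 19 of *Cd3d*. The 2 products join CD3ε in the same receptor complex. The estimates were whole numbers in 1 to 3 of 11 libraries for *Cd3d*, *Cd3g*, *Cd247*, *Trbc1* and *Trbc2*, and in 9 to 11 for the other 4 genes, and how transcripts were joined into 1 value per symbol is not given in the sources used here. *Pgk1*, a glycolytic gene that every cell uses, was listed at 0 in 3 of the libraries, so a value of 0 in these files does not show that a transcript was absent. *Cd3g* and *Cd247* are reported below as listed values.

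In CD4NIKΔ libraries 8 of the 9 genes rose against CD4cre, all but *Cd247*, with log2 fold changes from 1.51 (*Cd2*) to 3.03 (*Cd3g*). The background share of genes called higher in this comparison was 10.4% by edgeR and 12.7% by DESeq2, which called the same number of the 9, and the median log2 fold change of the 9 genes was 2.14 beside −0.02 over all 15209 genes tested. In bulk libraries, fewer cells of a type and less RNA per cell cannot be told apart, and this holds for each difference below. The groups did not overlap for 8 of the 9 genes, where 22.6% of all genes were higher without overlap.

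*Trac*, the α chain constant region, was at 392, 283 and 176 CPM in the CD4cre libraries and at 1282, 2003 and 2471 CPM in those labelled CD4NIKΔ. The lowest CD4NIKΔ library stood well above the highest CD4cre library. The difference was 2.74 ± 0.35 (log2 fold change ± SE; 6.70-fold; edgeR adjusted p = 0.00416). *Trbc2*, the more abundant β constant gene, was at 668, 579 and 310 CPM against 1468, 2340 and 2489 CPM (2.00 ± 0.32, edgeR adjusted p = 0.00849). *Trbc1* was at 317, 244 and 143 CPM against 567, 1147 and 1415 CPM (2.14 ± 0.39, edgeR adjusted p = 0.0119). All 3 constant region genes were thus higher in each CD4NIKΔ library than in any control.

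Among the signalling chains, *Cd3e*, whose product pairs with both CD3γ and CD3δ, rose most after *Cd3g*. It was at 123, 72.4 and 46.5 CPM in CD4cre libraries and at 415, 582 and 906 CPM in CD4NIKΔ libraries (2.96 ± 0.41, 7.79-fold, edgeR adjusted p = 0.00502). *Cd3d* was at 192, 178 and 106 CPM against 356, 700 and 575 CPM (1.76 ± 0.30, edgeR adjusted p = 0.0103). Both genes were higher in every CD4NIKΔ library. *Cd3g* was listed at 0.653, 1.07 and 1.45 CPM, or 17 to 29 counts, against 2.15, 13.3 and 11.0 CPM (3.03 ± 0.76, edgeR adjusted p = 0.0281). Its call rested on few counts and was lost when any 1 of 5 libraries was left out, with adjusted p = 0.0628, 0.0768 and 0.0698 without CD4cre replicate 1, 2 and 3, and 0.107 and 0.0985 without CD4NIKΔ replicate 2 and 3. *Cd247*, the ζ chain, was at 9.19, 1.12 and 3.76 CPM against 4.97, 17.3 and 12.7 CPM. Its groups overlapped, and it did not pass (1.29 ± 0.75, edgeR adjusted p = 0.245).

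*Cd4*, which was used to sort the cells, had the smallest p of the 9 genes. It was at 78.4, 51.1 and 57.4 CPM in CD4cre libraries and at 365, 382 and 316 CPM in CD4NIKΔ libraries, a tight group about its mean of 354 ± 34.6 CPM (SD, n = 3). The difference was 2.49 ± 0.22 (5.63-fold, edgeR adjusted p = 0.00170). *Cd2* rose least of the genes that passed, from 407, 291 and 207 CPM to 684, 872 and 1047 CPM (1.51 ± 0.28, edgeR adjusted p = 0.0123), and lost its call without CD4cre replicate 2 (1.51, adjusted p = 0.0507). The calls also depended on which libraries were in the fit. With all 11 libraries in a single edgeR fit, the fold changes stayed at 1.31 to 3.05 and 0 of the 9 passed (adjusted p 0.0985 to 0.529). That fit adds the spread of the CD4IKK1Δ group and also changes the gene filter and the scaling. Which of these mattered was not tested. DESeq2 on all 11 libraries called 2, *Cd3e* and *Cd3g*, and gave *Cd4* no adjusted p.

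In libraries labelled CD4IKK1Δ none of the 9 genes passed the test against CD4cre. All 9 estimates were below 0, from −2.55 for *Cd2* to −1.0 for *Cd3g*, with a median of −2.14 beside 0.02 over all 15653 genes tested. edgeR called 0 genes of any kind in this comparison, so the background share called lower was 0%. At an unadjusted p under 0.05 it held 1394 genes that were lower (8.91%) and 1198 that were higher (7.65%), and 0 of the 9 were among them. DESeq2 on the same libraries called 553 genes, 3.99% of those it tested being called lower, and 0 of the 8 it gave an adjusted p (none for *Cd3g*), and voom called 0 of the 9.

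*Cd2* came nearest. It was at 407, 291 and 207 CPM in CD4cre libraries and at 1.36, 10.5, 88.5, 74.1 and 82.9 CPM in those labelled CD4IKK1Δ. All 5 CD4IKK1Δ libraries were below the lowest control, and 2 of them far below the rest of their group. The difference was −2.55 ± 1.10 (log2 ± SE, edgeR adjusted p = 0.316). *Cd3e* was at 0.258, 1.57, 24.9, 19.1 and 25.9 CPM in CD4IKK1Δ libraries, again below the 46.5 CPM of the lowest control (−2.49 ± 1.17, edgeR adjusted p = 0.350). *Trac* was at 0.0646, 11.9, 136, 66.9 and 108 CPM, below the control range of 176 to 392 CPM (−2.14 ± 1.34, edgeR adjusted p = 0.498). These 3 genes were lower without overlap, where 8.38% of all genes were.

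For the remaining 6 genes the groups overlapped. *Trbc2* was at 2.46, 20.3, 325, 135 and 102 CPM and *Trbc1* at 0.129, 13.2, 185, 60.7 and 44.3 CPM, and in both it was replicate 3 that reached into the control range (−2.15 ± 1.22 and −1.95 ± 1.35, edgeR adjusted p = 0.445 and 0.549). *Cd3d* was at 1.23, 11.7, 126, 51.4 and 24.7 CPM, with replicate 3 above the lowest control (−1.89 ± 1.14, edgeR adjusted p = 0.478). *Cd4* was at 2.07, 7.22, 68.9, 18.8 and 24.2 CPM, with replicate 3 above 2 of the 3 controls (−1.36 ± 0.91, edgeR adjusted p = 0.526). *Cd3g* was listed at 0 in replicate 2 and at 0.0994 to 1.17 CPM in the others. *Cd247* was listed at 0 in replicates 1 and 2 and at 1.19 to 2.12 CPM in the others. Neither passed (−1.0 ± 1.27 and −2.30 ± 1.32, edgeR adjusted p = 0.778 and 0.419).

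The size of these differences, and one call, turned on the pair of libraries with few receptor counts. Without CD4IKK1Δ replicate 1, 0 of the 9 passed, and *Trac* stood at −1.82 ± 0.75 (edgeR adjusted p = 0.316). Without replicates 1 and 2 together, a choice made after the values were seen, *Cd2* passed at −1.88 ± 0.23 (edgeR adjusted p = 0.0342) and the other 8 did not. *Cd3e* was then at −1.79 ± 0.34 (adjusted p = 0.101), *Trac* at −1.46 ± 0.35 (0.153) and *Cd4* at −0.74 ± 0.46 (0.541). All 9 estimates were still below 0, the smallest being *Cd3g* at −0.51 ± 1.11.

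**Figure D2:**
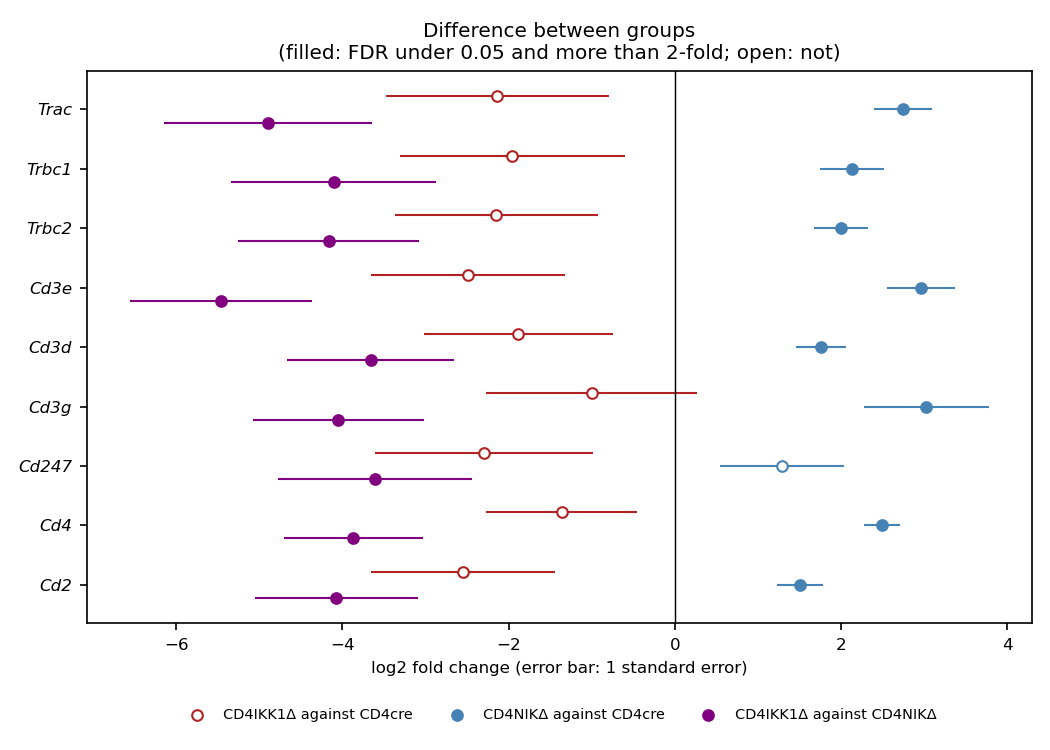
log2 fold change of each of the 9 genes in the 3 comparisons (x axis; error bars are 1 standard error), filled where the gene passed an FDR under 0.05 and 2-fold and open where it did not. The CD4NIKΔ points lie right of 0 with 8 of 9 filled, the CD4IKK1Δ against CD4cre points lie left of 0 and are all open, and the CD4IKK1Δ against CD4NIKΔ points lie between −5.46 and −3.61, all filled.

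Between the 2 deletions all 9 genes were lower in the libraries labelled CD4IKK1Δ than in those labelled CD4NIKΔ, and no gene overlapped between the groups. The background share called lower was 18.5% by edgeR and 19.3% by DESeq2, which called 8 of the 9 and gave *Cd4* no adjusted p, and 24.4% of all genes were lower without overlap. The median log2 fold change of the 9 was −4.07 beside 0.06 over all 16546 genes tested. *Cd3e* differed most, at 0.258 to 25.9 CPM against 415 to 906 CPM (−5.46 ± 1.10, edgeR adjusted p = 0.00334). *Cd4* followed by p (−3.87 ± 0.84, edgeR adjusted p = 0.00488), then *Cd3g* (−4.05 ± 1.03, edgeR adjusted p = 0.00712). The receptor genes were at −4.89 ± 1.25 for *Trac*, −4.17 ± 1.09 for *Trbc2* and −4.11 ± 1.23 for *Trbc1* (edgeR adjusted p = 0.0112, 0.0126 and 0.0235). *Cd2* was at −4.07 ± 0.98 (edgeR adjusted p = 0.00820), *Cd3d* at −3.66 ± 1.01 (edgeR adjusted p = 0.0159) and *Cd247* at −3.61 ± 1.16 (edgeR adjusted p = 0.0254).

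This contrast did not rest on the pair of libraries with few receptor counts. Without CD4IKK1Δ replicates 1 and 2 the 9 genes were at −4.76 (*Cd3e*) to −2.87 (*Cd247*) and all 9 passed (edgeR adjusted p 5.99e-05 to 0.0164). It leaned more on the CD4NIKΔ side. Without CD4NIKΔ replicate 2, *Trbc1* (−4.04, adjusted p = 0.0583), *Cd3d* (−3.45, 0.05004) and *Cd247* (−3.21, 0.0843) lost their calls, as they did without replicate 3 (−3.83, 0.0775; −3.62, 0.0505; −3.54, 0.0647).

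Ratios between the genes within a library do not depend on scaling, and 6 were compared in 3 comparisons by exact two-sided permutation tests. None of the 18 passed after adjustment (smallest adjusted p = 0.643), and with 3 libraries against 3 the smallest p possible is 0.1. The ratio of the 3 constant regions to the CD3 chains γ, δ and ε had the smallest SD of the 6 within the CD4cre and within the CD4NIKΔ libraries, but not within CD4IKK1Δ, where its SD was 0.704 and that of *Cd2* to the CD3 chains 0.558 (n = 5). Its log2 value was 2.13, 2.14 and 2.03 in CD4cre libraries and 2.10, 2.08 and 2.10 in CD4NIKΔ libraries, a difference of −0.0042 (exact p = 1.0), while both sets of genes had risen. In CD4IKK1Δ libraries it was 0.50, 1.78, 2.09, 1.89 and 2.30, and 2.09 ± 0.20 (SD, n = 3) without replicates 1 and 2.

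A pair of ratios separated the CD4NIKΔ and CD4cre libraries without overlap, at the smallest p the design allows. *Trac* relative to *Trbc1* and *Trbc2* was −1.33, −1.54 and −1.36 on the log2 scale in CD4cre libraries and −0.67, −0.80 and −0.66 in CD4NIKΔ libraries, higher in 3 of 3 (difference 0.70, exact p = 0.1, adjusted p = 0.643). *Cd2* relative to the CD3 chains was 0.37, 0.21 and 0.42 against −0.18, −0.57 and −0.51, lower in 3 of 3 (difference −0.75, exact p = 0.1, adjusted p = 0.643). So *Trac* took 16.6% to 17.9% of the 9 genes' counts in CD4cre libraries and 24.9% to 26.7% in CD4NIKΔ libraries, and *Cd2* took 17.1% to 19.6% and 10.8% to 13.3%. CD4IKK1Δ libraries spread across both ranges in each ratio.

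**Figure D3:**
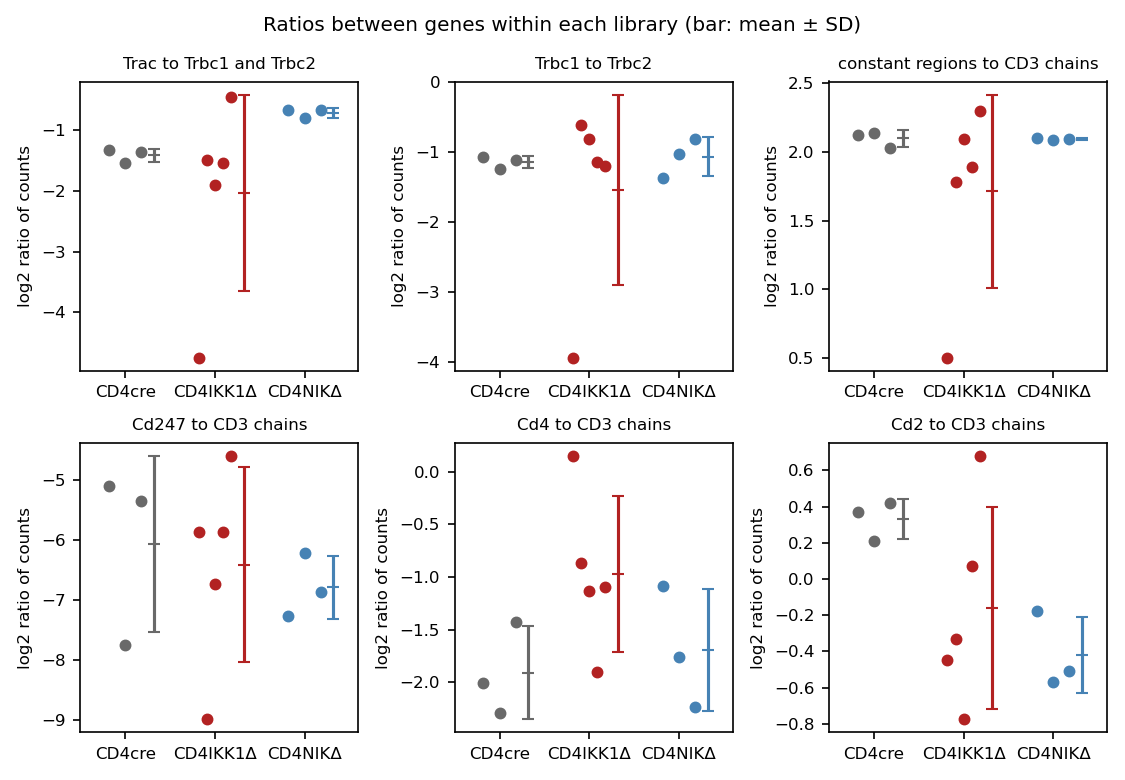
log2 ratios of counts between genes within each library (y axis), 1 point per library, with the group mean ± SD as a bar at the right of each group. The constant region to CD3 ratio is near 2.1 in all CD4cre and CD4NIKΔ libraries, and CD4IKK1Δ replicate 1 is the lowest point for *Trac* to *Trbc*, *Trbc1* to *Trbc2* and constant regions to CD3 chains.

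Of the other ratios, *Cd4* to the CD3 chains was −2.01, −2.30 and −1.43 in CD4cre libraries and 0.15, −0.87, −1.14, −1.91 and −1.10 in CD4IKK1Δ libraries (difference 0.94, exact p = 0.107, adjusted p = 0.643). The groups overlapped, and without replicates 1 and 2 the difference was 0.53 (exact p = 0.2). In CD4NIKΔ libraries it was −1.09, −1.76 and −2.24. The share of *Trbc1* in the β constant counts was 29.6% to 32.2% in CD4cre libraries and 27.9% to 36.2% in CD4NIKΔ libraries. It was 30.2% to 39.6% in 4 CD4IKK1Δ libraries and 5.0% in replicate 1, which had 40 such counts. *Cd247* to the CD3 chains ranged from −7.75 to −5.10 in CD4cre libraries, which is wider than any difference between group means.

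**Figure D4:**
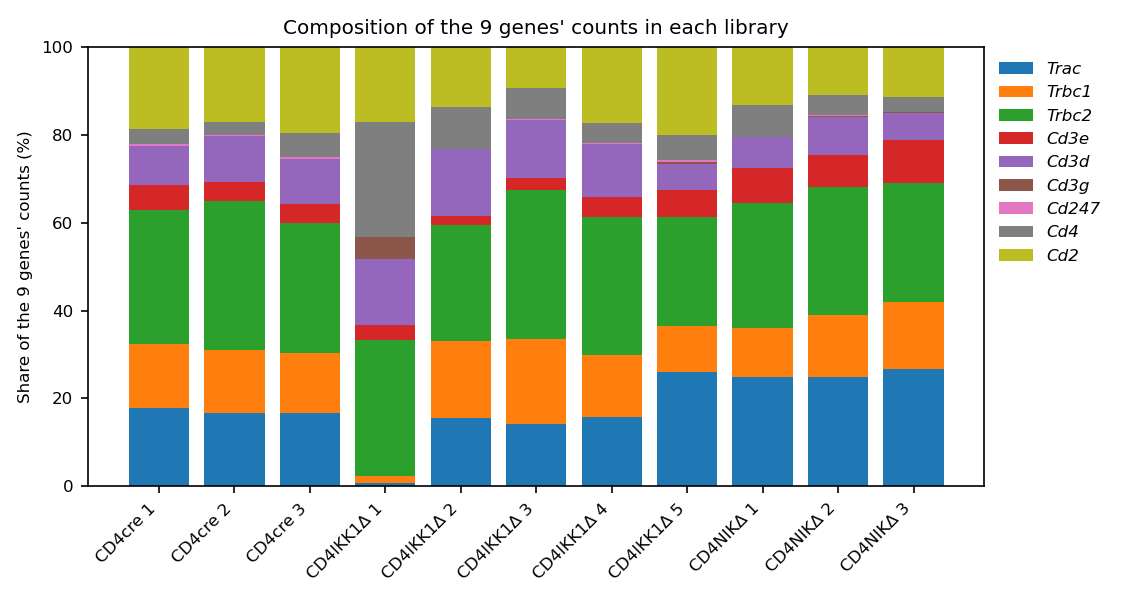
Share of the 9 genes' counts (%, stacked bars from 0 to 100) taken by each gene in each library. *Trbc2* takes 24.7% to 34.1% in all 11 libraries, *Trac* takes 24.9% to 26.7% in CD4NIKΔ against 16.6% to 17.9% in CD4cre libraries, and CD4IKK1Δ replicate 1, with 123 counts in all, has a composition of its own with 26.1% from *Cd4*.

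The partners of the receptor were examined as a list of 26 genes of proximal signalling, from the kinase Lck and the adaptors LAT and SLP-76 (*Lcp2*) to costimulators. Its summed level was 1443 to 2239 CPM in CD4cre, 364 to 1098 CPM in CD4IKK1Δ and 6374 to 6882 CPM in CD4NIKΔ libraries, so the 3 groups did not overlap. In CD4NIKΔ against CD4cre 16 of the 26 rose and 0 fell (median log2 fold change 1.63), where 10.4% of all genes rose. With any 1 library left out 12 to 19 rose, where 3.8% to 10.7% of all genes did. *Lcp2* rose from 1.40 to 8.19 CPM in controls to 90.9 to 185 CPM (4.76 ± 0.61, edgeR adjusted p = 0.00419), and *Lck*, the kinase that CD4 carries, from 151 to 301 CPM to 1203 to 1523 CPM (2.56 ± 0.28, adjusted p = 0.00256). *Themis* (2.78 ± 0.58, adjusted p = 0.0181) and *Trat1* (2.36 ± 0.40, adjusted p = 0.00979) also rose.

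Against CD4cre, 0 of the 26 passed in CD4IKK1Δ libraries, where the median was −1.86, 12 were lower and 1 higher at an unadjusted p under 0.05, and DESeq2 called 6 lower, beside 8.91%, 7.65% and 3.99% of all genes. The 2 with the smallest p were *Pag1*, an adaptor that holds the inhibitory kinase Csk (−2.21 ± 0.44, edgeR adjusted p = 0.0850), and *Fyn*, a kinase related to Lck (−0.82 ± 0.17, adjusted p = 0.0898). Between the deletions 22 of the 26 were lower in CD4IKK1Δ, where 18.5% of all genes were (median −3.82), led by *Lcp2* (−6.51 ± 1.19, adjusted p = 0.00194), *Cd28* (−4.95 ± 1.01, 0.00364), *Sla2* (−4.65 ± 0.76, 0.000977) and *Lck* (−4.61 ± 0.88, 0.00249). *Thy1*, a surface glycoprotein of mouse T cells and of neurons, was not called in any comparison. It was at 113 to 157 CPM in CD4cre, 154 to 204 CPM in CD4IKK1Δ and 106 to 144 CPM in CD4NIKΔ libraries, and was not near 0 in any library. *Thy1* and *Sh2d1a* (35.1 to 50.8 CPM in CD4IKK1Δ, 29.9 to 32.3 CPM in CD4NIKΔ) were the 2 of the 26 above 0 between the deletions. Both were higher without overlap and at an unadjusted p under 0.05 in edgeR's test, as were 3933 of 16546 genes at that p.

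In a list of 5 genes named CD2 partners, *Cd244a* encodes another receptor for CD48 and not a binder of CD2. *Cd48*, which encodes the ligand of CD2, was at 9.73 to 26.1 CPM in CD4cre libraries, 0 to 13.6 CPM in CD4IKK1Δ libraries and 149 to 629 CPM in CD4NIKΔ libraries. It rose in CD4NIKΔ (4.71 ± 0.62, edgeR adjusted p = 0.00435), as did *Cd244a* (3.84 ± 1.00, 0.0316), at 1.05 to 2.54 CPM, and *Pstpip1*, whose product binds the CD2 tail (1.52 ± 0.20, 0.00435), making 3 of 5 (10.4% of all genes). Between the deletions *Cd48* (−6.89 ± 1.32, 0.00255), *Pstpip1* (−2.59 ± 0.31, 0.000111) and *Cd2bp2* (−1.01 ± 0.19, 0.00105) were lower in CD4IKK1Δ, 3 of 5 beside 18.5% of all genes. None of the 5 passed edgeR for CD4IKK1Δ against CD4cre (1 was lower at an unadjusted p under 0.05 and 1 by DESeq2, beside 8.91% and 3.99% of all genes), where *Pstpip1* (−1.06 ± 0.33, 0.163) and *Cd244a* (2.89 ± 1.59, 0.401) had the smallest p.

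Among 13 T cell transcription factors, 4 rose in CD4NIKΔ libraries (10.4% of all genes did): *Lef1* (3.26 ± 0.47, edgeR adjusted p = 0.00554), *Ets1* (2.61 ± 0.35, 0.00468), *Tcf7* (2.55 ± 0.56, 0.0207) and *Gata3* (1.91 ± 0.39, 0.0173). Without CD4NIKΔ replicate 3, 2 of the 13 rose (3.8% of all genes did). LEF1 and TCF-1 (*Tcf7*) are partners in T cell development, and GATA3 serves CD4 lineage choice. Of the 13, 9 were lower in CD4IKK1Δ than in CD4NIKΔ, where 18.5% of all genes were, led by *Lef1* (−5.75 ± 1.20, 0.00403), *Ets1* (−5.55 ± 0.79, 0.000396), *Runx3* (−5.02 ± 1.06, 0.00245) and *Tcf7* (−4.73 ± 1.07, 0.00593). Against CD4cre, 0 of the 12 tested passed in CD4IKK1Δ libraries (3 lower at an unadjusted p under 0.05 and 2 by DESeq2, beside 8.91% and 3.99% of all genes), with *Ets1* (−2.94 ± 0.82, 0.136) and *Satb1* (−1.26 ± 0.38, 0.171) nearest.

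Chains of other receptors were present at low levels. The γδ receptor constant genes and 2 further chains summed to 14.5 to 57.3 CPM in CD4cre, 0.157 to 4.12 CPM in CD4IKK1Δ and 59.4 to 282 CPM in CD4NIKΔ libraries. *Trgc2*, a γ constant gene, rose in CD4NIKΔ (2.43 ± 0.60, edgeR adjusted p = 0.0276), as 1 of 4 tested (10.4% of all genes), and 0 of the chains did without CD4cre replicate 2 or 3 or CD4NIKΔ replicate 2 or 3. *Trdc*, the single δ constant gene, was at 0.195 to 3.57 CPM in CD4cre libraries, at 5.24 to 21.9 CPM in CD4NIKΔ libraries and listed at 0 in 4 of 5 CD4IKK1Δ libraries. All 4 chains tested were lower in CD4IKK1Δ than in CD4NIKΔ, where 18.5% of all genes were, with *Trgc4* at −8.03 ± 1.12 (0.000317), *Trgc2* at −6.35 ± 1.03 (0.000810) and *Trgc1* at −5.69 ± 1.04 (0.00135). The other, *Trdc* (−9.57 ± 1.31, 0.000196), passed the filter on low counts only through the CD4NIKΔ libraries. Its direction was thus set by the filter and is no support. Against CD4cre, 0 of 3 passed in CD4IKK1Δ libraries (3 lower at an unadjusted p under 0.05 and 3 by DESeq2, beside 8.91% and 3.99% of all genes), with *Trgc4* (−6.06 ± 1.07, 0.0632) and *Trgc2* (−3.93 ± 1.12, 0.148) nearest. The γ constant genes resemble one another, so single values among them are uncertain.

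Markers of other cells moved with the receptor genes in some comparisons, and their part in the results was not tested. *Cd8a* was at 0 to 5.90 CPM in all libraries and *Cd8b1* at 0 to 19.8 CPM, and the pair summed to 3.16 to 16.5 CPM in CD4cre, 0.0523 to 2.93 CPM in CD4IKK1Δ and 13.5 to 25.7 CPM in CD4NIKΔ libraries. Of the pair, *Cd8b1* was lower in CD4IKK1Δ than in CD4NIKΔ (−3.99 ± 1.27, edgeR adjusted p = 0.0252), where 18.5% of all genes were, and 0 of the pair were without CD4NIKΔ replicate 2 or 3. With all libraries, the other 2 comparisons called neither by edgeR or DESeq2, nor at an unadjusted p under 0.05, and without CD4cre replicate 1 edgeR called 1 of the pair higher in CD4NIKΔ (10.7% of all genes). With all libraries *Cd8b1* was at −2.74 ± 1.40 (edgeR adjusted p = 0.363) and *Cd8a* at −2.24 ± 1.56 (0.532) for CD4IKK1Δ against CD4cre, and they were at 1.25 ± 0.72 (0.246) and 1.10 ± 1.05 (0.482) for CD4NIKΔ.

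Neuronal markers ran the opposite way, except that 1 of 8, *Celsr3*, had an estimate above 0 in CD4NIKΔ against CD4cre. It was at 0.653 to 0.752 CPM in CD4cre and 0.246 to 4.59 CPM in CD4NIKΔ libraries. *Celsr3* had already been reported as higher in CD4IKK1Δ from these same libraries, so its rise there is not separate support. Of 8, 5 fell in CD4NIKΔ against CD4cre, where 6.99% of all genes did, among them *Syt1* (−1.43 ± 0.33, edgeR adjusted p = 0.0231), *Rbfox3* (−1.34 ± 0.31, 0.0241), *Nefl* (−1.24 ± 0.30, 0.0253) and *Snap25* (−1.18 ± 0.36, 0.0483). This count was 0 of 8 without CD4cre replicate 2 or 3 or CD4NIKΔ replicate 2 or 3, where 0.371% to 0.735% of all genes fell. It was 4 and 7 of 8 without CD4cre or CD4NIKΔ replicate 1, where 4.93% and 11% of all genes fell. All 8 were higher in CD4IKK1Δ than in CD4NIKΔ, where 14.8% of all genes were, led by *Celsr3* (2.62 ± 0.96, 0.0443), *Snap25* (1.56 ± 0.28, 0.000826), *Tubb3* (1.54 ± 0.26, 0.000656) and *Syt1* (1.54 ± 0.28, 0.000980). Against CD4cre, 0 of 8 passed in CD4IKK1Δ (4 higher at an unadjusted p under 0.05 and 1 by DESeq2, beside 7.65% and 0.397% of all genes), with *Celsr3* (4.05 ± 0.84, 0.0891) and *Tubb3* (0.46 ± 0.11, 0.0975) nearest. Without CD4IKK1Δ replicate 3, edgeR called 1 neuronal marker higher there (0.00649% of all genes), and 1 of the 26 signalling genes and 1 of the 5 CD2 partners lower (0.052%). *Nefl* alone stood at 909 to 1094 CPM in CD4IKK1Δ libraries.

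The shares of these lists that were lower in CD4IKK1Δ than in CD4NIKΔ stand beside 18.5% of all genes. Myeloid markers summed to 193 to 602 CPM in CD4cre, 45.1 to 66.6 CPM in CD4IKK1Δ and 294 to 515 CPM in CD4NIKΔ libraries, and 2 of 7 tested were lower in CD4IKK1Δ than in CD4NIKΔ, *Lyz2* (−5.02 ± 0.89, edgeR adjusted p = 0.00172) and *Fcgr1* (−2.28 ± 0.82, 0.0407). *Flt3* (3.03 ± 1.27, edgeR adjusted p = 0.0731, DESeq2 adjusted p = 0.0185) and *Cd68* (0.84 ± 0.33, edgeR adjusted p = 0.0558) had estimates above 0, and 1 or 2 of the list were called lower with any 1 library left out. Kidney tubule markers summed to 18.7 to 80.1, 5.04 to 11.4 and 14.3 to 111 CPM in the same order of groups, and 3 of 9 tested were lower in CD4IKK1Δ than in CD4NIKΔ: *Miox* (−6.08 ± 1.56, 0.00765), *Umod* (−4.48 ± 1.44, 0.0280) and *Kap* (−4.04 ± 1.22, 0.0181). Erythroid markers summed to 2078 to 2680, 532 to 1612 and 1177 to 8183 CPM, and 4 of 5 were lower in CD4IKK1Δ than in CD4NIKΔ, from *Hbb-bt* (−2.72 ± 0.71, 0.0121) to *Hba-a2* (−1.94 ± 0.51, 0.0125). Without CD4NIKΔ replicate 3, 0 of 5 erythroid and 1 of 9 tubule markers were lower, and without CD4NIKΔ replicate 1, 5 of 9 tubule markers were. NK cell markers summed to 3.61 to 22.5, 0.452 to 5.22 and 19.1 to 87.8 CPM, with 3 of 3 tested lower in CD4IKK1Δ than in CD4NIKΔ (*Eomes*, *Klre1* and *Klrb1c*, −5.0 ± 1.27, −4.81 ± 0.80 and −4.09 ± 1.15, adjusted p = 0.00722, 0.000558 and 0.0151). *Eomes*, at 0 to 0.827, 0 to 0.262 and 1.84 to 4.41 CPM, passed the filter on low counts only through the CD4NIKΔ libraries. Its direction in both comparisons with CD4NIKΔ was thus set by the filter and is no support. With all libraries, none of these 4 lists held a gene past edgeR's test in either comparison with CD4cre. Without CD4IKK1Δ replicate 4, 3 of 5 erythroid genes were lower in CD4IKK1Δ (0.15% of all genes), and without CD4NIKΔ replicate 1, 2 of 4 NK cell and 1 of 8 tubule genes were higher in CD4NIKΔ (10.5%). At an unadjusted p under 0.05, CD4IKK1Δ was lower for 2 myeloid, 3 tubule, 4 erythroid and 1 NK cell genes, and DESeq2 called 2, 0, 4 and 1 of them lower, beside 8.91% and 3.99% of all genes. CD4NIKΔ was lower for 1 myeloid gene (17.8% of all genes at that p, 9.45% by DESeq2) and higher for 2 tubule and 3 NK cell genes (19% and 12.7%), both at that p and by DESeq2.

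B cell markers summed to 1.99 to 5.76, 0.547 to 5.54 and 2.81 to 23.0 CPM, and *Cd79b* was lower in CD4IKK1Δ than in CD4NIKΔ (−6.41 ± 1.59, edgeR adjusted p = 0.00637), the 1 of 3 tested that passed, where 18.5% of all genes were lower. At an unadjusted p under 0.05, 7.65% of all genes were higher in CD4IKK1Δ than in CD4cre. *Ms4a1* was at 0.0769 to 0.351, 0.366 to 3.17 and 0.110 to 1.38 CPM, with 2.63 ± 1.18 for CD4IKK1Δ against CD4cre (unadjusted p = 0.0477 in edgeR's test, adjusted p = 0.299) and 1.27 ± 1.10 against CD4NIKΔ (edgeR adjusted p = 0.385), and DESeq2 called no B cell gene against CD4cre. Endothelial markers summed to 87.6 to 98.5, 85.9 to 112 and 63.8 to 83.1 CPM. *Pecam1*, which leukocytes also carry, rose in CD4NIKΔ (1.29 ± 0.38, 0.0458, the call being lost without any 1 library but CD4NIKΔ replicate 1) and was lower in CD4IKK1Δ than in CD4NIKΔ (−1.72 ± 0.32, 0.00108), whereas *Egfl7* was higher (1.31 ± 0.25, 0.00139). Each is 1 of 5 tested, near the shares of all genes (10.4%, 18.5% and 14.8%). For CD4NIKΔ against CD4cre, DESeq2 called 2 of the list higher and 1, *Egfl7*, lower (12.7% and 9.45% of all genes). Neutrophil markers (1.26 to 4.08 CPM in all libraries) and fibroblast markers (0.730 to 10.3 CPM) held no gene past edgeR or DESeq2, or at an unadjusted p under 0.05, in any comparison. *S100a9* and *Ly6g* were listed at 0 in 10 of the 11 libraries, *Cdh5* in 10, *Ncr1* in 9, and *Pdgfrb* in 11.

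**Figure D5:**
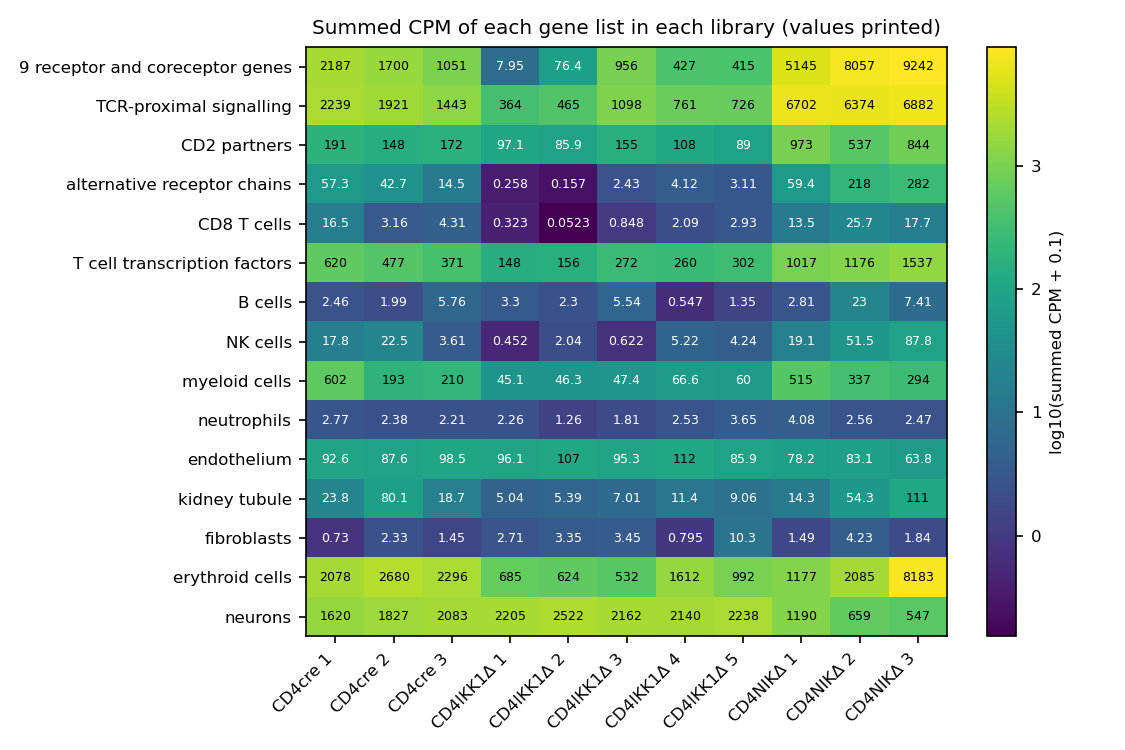
Summed CPM of each gene list (rows) in each of the 11 libraries (columns), printed in the cells and coloured on a log10 scale of summed CPM + 0.1. The 9 receptor and coreceptor genes run from 7.95 CPM in CD4IKK1Δ replicate 1 to 9242 CPM in CD4NIKΔ replicate 3, and neuronal markers from 547 CPM in CD4NIKΔ to 2522 CPM in CD4IKK1Δ libraries.

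Likeness of profile was measured over the 11 libraries as the root mean square difference between log2 CPM values centred on each gene's mean, and it is a description in which all points share the same libraries. *Trbc2* lay nearest of 16546 genes to the mean of the 9, to which it contributes, at 0.326, and *Cd2* had rank 4, at 0.373. *Cd3d* was at 0.486, *Cd4* at 0.667, *Cd3e* at 0.679, *Cd247* at 0.929, *Trbc1* at 0.932 and *Trac* at 1.18, and *Cd3g* was farthest at 1.70 (rank 1032). The nearest genes outside the 9 were *H2-D1* (0.355) and *H2-Q7* (0.361), which encode MHC class I molecules, then *Il21r* (0.422), *Kcnn4* (0.424), *Nlrc5* (0.437), *Adcy7* (0.466), *Bcl3* (0.467), *Itgal* (0.467), *Il2rb* (0.468) and *Fxyd5* (0.485). *H2-D1* had medians of 2124 CPM in CD4cre, 446 CPM in CD4IKK1Δ and 8137 CPM in CD4NIKΔ libraries. Without CD4IKK1Δ replicate 1, 3 of these 10 genes were again among the nearest 10, and 6 were without CD4IKK1Δ replicate 3 or CD4NIKΔ replicate 1.

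Each gene was also set beside its own nearest gene outside the 9. *Cd3e* lay nearest to *Cd40lg* (0.280), *Cd4* to *Cd5* (0.318), *Trbc1* to *Lat* (0.399) and *Trac* to *Icos* (0.452). *Cd3d* lay nearest to *Kcnn4* (0.277), and *Trbc2* (0.312) and *Cd2* (0.214) both to *H2-D1*. The 2 sparsely counted genes had more distant neighbours, *Cd274* at 0.623 for *Cd3g* and *Dusp10* at 0.612 for *Cd247*.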

How the data were processed

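Renal CD4+ T cell RNA was amplified with a SMARTer kit and sequenced. Per the labels and the study's methods, the authors trimmed reads with Trimmomatic and quantified transcripts with kallisto, and the deposited values are estimated counts per gene symbol, with 35.3% to 41.8% of a library's values not whole. The build is mm10 in the submitters' notes and GRCm39 in the methods. The index, its strand setting and the joining of transcripts into symbols are not given in the sources used here.

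Counts were rounded to whole numbers. Genes were filtered with filterByExpr, scaled with TMM factors and tested with the robust quasi-likelihood F test of edgeR 4.0.16 (R 4.3.3, limma 3.58.1), with Benjamini-Hochberg adjustment over all genes tested, and called at an FDR under 0.05 with more than 2-fold change. CD4IKK1Δ and CD4NIKΔ were each compared with CD4cre in a fit of their own libraries, and with each other in a fit of all 11. DESeq2, which the authors used in a version not stated, was an alternative (version 1.42.0 here), as were voom, other scalings, other filters and leaving out libraries. An adjusted p that DESeq2 set to NA (*Cd3g* for CD4IKK1Δ against CD4cre in the fit of those libraries, and *Cd4* in every comparison of the fit of all 11) was kept as NA. Ratios used counts plus 0.5, and distances log2 CPM with a prior count of 2. Levels per kilobase used the length of the canonical GENCODE transcript. The scripts were tested on simulated data. None of the 55 pairs of libraries was identical. The labels name separate biological replicates, and p-values measure the spread between these libraries.

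The 9 genes and the other lists were chosen with earlier results of these data known. Named are all 9 genes, *Chuk* and *Map3k14*, up to 4 genes per list and comparison with the largest change among those called (otherwise the 2 of smallest p), and the nearest profiles. *Thy1*, *Sh2d1a*, *Nefl* alone, *Lat*, *Flt3*, *Cd68*, *Ms4a1* and the genes listed at 0 were named after their values were seen. A planned marker gene is not reported here and was left out of its list.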

Additional observations from a re-analysis of the deposited data

Results flagged for a closer look

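Of 15 values checked for a library far from the rest of its group, 2 stood out, and chance gives about 1 in 20. Both belong to CD4IKK1Δ replicate 1, which held 123 counts over the 9 genes. Its log2 ratio of *Trbc1* to *Trbc2* was −3.94, with a gap to the nearest library of 0.821 of the group's range. Its log2 ratio of the receptor constant regions to the CD3 chains was 0.503, with a gap of 0.711 of the range.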

How the results depend on the processing

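Over the alternatives run, every fold change of the 9 genes kept its direction, also under scaling by upper quartile or library size alone, which moved the median of all genes to −0.157 and −0.147 for CD4NIKΔ against CD4cre and to 0.302 and 0.164 for CD4IKK1Δ against CD4NIKΔ. The lower share of the calls moved with them, from 40.1% to 55.1% and 50.99%, and from 55.7% to 44.5% with upper-quartile factors. For CD4NIKΔ against CD4cre it was also 59.4% with all 11 libraries in the fit, 16.03% with the block, 51.1% without CD4NIKΔ replicate 1 and 7.19% to 11.7% (60 to 117 lower calls, against 1063) without CD4cre replicate 2 or 3 or CD4NIKΔ replicate 2 or 3. For CD4IKK1Δ against CD4cre the count of all genes called, 0 in the reported test, was 553 with DESeq2, 705 with DESeq2 on all 11 libraries, 224 with voom, 1 with RLE or upper-quartile factors, 48 with at least 1 count in any library, 159 with at least 10 counts in every library, 129 with all 11 libraries in the fit, 6 after thinning, 36 without CD4IKK1Δ replicates 1 and 2, and 0 to 23 with any 1 library left out (23 without CD4IKK1Δ replicate 4). DESeq2 on all 11 libraries and the fit without replicates 1 and 2 called 1 of the 9, *Cd2*. For CD4NIKΔ against CD4cre, where edgeR called 2649 genes, the count was 4288 with voom and 674 to 3468 with 1 library left out, with 1001 and 859 without CD4cre replicate 2 and 3, and 918 and 674 without CD4NIKΔ replicate 2 and 3. Of the 9 genes, DESeq2 on all 11 libraries, which gave *Cd4* no adjusted p, called 2 and edgeR on all 11 called 0. For CD4IKK1Δ against CD4NIKΔ, at least 10 counts in every library left 4 of the 9 to test, and all 4 were called. The filters and left-out libraries change which genes or samples are tested, and the cause was not tested for the other settings.

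Same-numbered libraries did not deviate together (correlations −0.0890 to 0.0772, none over 0.1, and not every library correlated best with its own number), so the numbers were not read as a pairing. With the replicate number as a block, the counts were 3, 1185 and 4994 genes, and 0, 7 and 5 of the 9, in the order CD4IKK1Δ against CD4cre, CD4NIKΔ against CD4cre, and CD4IKK1Δ against CD4NIKΔ.

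Some differences of log2 ratios changed sign, none of them past the test. With 2 counts added, *Cd247* to CD3 chains for CD4IKK1Δ against CD4cre was 0.441. Without CD4IKK1Δ replicates 1 and 2 it was 0.334, *Trac* to *Trbc1* and *Trbc2* was 0.114, and *Trbc1* to *Trbc2* was 0.0875 against CD4cre and 0.0136 against CD4NIKΔ. With 1 library left out, the ranges for CD4IKK1Δ against CD4cre were −1.01 to 0.0664 for *Trac* to *Trbc1* and *Trbc2*, −0.634 to 0.199 for *Trbc1* to *Trbc2* and −1.19 to 0.300 for *Cd247* to CD3 chains. For CD4NIKΔ against CD4cre they were −0.0544 to 0.224 for *Trbc1* to *Trbc2*, −0.0384 to 0.0158 for constant regions to CD3 chains and −0.0902 to 0.487 for *Cd4* to CD3 chains. For CD4IKK1Δ against CD4NIKΔ they were −0.708 to 0.125 for *Trbc1* to *Trbc2* and −0.0756 to 1.02 for *Cd247* to CD3 chains. Of the 10 nearest profiles, 6 were shared with a prior count of 0.5 and 3 to 9 with 1 library left out.

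Values near 0.115 to 0.212 CPM rest on about 3 counts, as in CD4IKK1Δ replicate 1, where *Trac* had 1 count and *Trbc1* 2. No library gives cell numbers, and no uninjured kidney was analysed here.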
